A study of Mus musculus with 16 samples.

Results

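An interval of 3 Mb on mouse chromosome 2, mm8 chr2:86000001-89000000, was examined as a stretch of olfactory receptor genes in splenic lymphocytes. All 600 windows of 5 kb that tile it were taken, out of 481064 on chromosomes 1 to 19. The other 35186 windows of chromosome 2 served as the comparison. Chromatin immunoprecipitation and sequencing (ChIP-seq) had been done on 16 libraries, 6 labelled Myc, 2 labelled Pol2 and 8 labelled IgG. Untreated B cells (B0) gave 1 Myc and 1 IgG library. B cells activated for 4 h with lipopolysaccharide (LPS), a component of bacterial walls, at 25 µg/ml (B4) gave 2 Myc, 3 IgG and 1 Pol2 library. B cells given LPS together with 10058-F4, a small molecule that keeps Myc from pairing with Max, gave 1 Myc, 2 IgG and 1 Pol2 library. T cells were activated with the plant lectin concanavalin A (ConA) at 7.5 µg/ml, and those taken at 4 h (T4) and at 14 h (T14) gave 1 Myc and 1 IgG library each. The Myc antibody recognises EGFP, so the Myc that was precipitated carried that tag. The tagged allele, the strain and the age of the mice are not given in the sources used here. The titles of B4 Pol2 and B4 IgG replicate 2 carry the mark wt, so these cells may differ in genotype from the others. The titles and the file names of the T14 libraries name opposite antibodies, and these libraries are called by their titles. Whether replicate libraries are from different mice is not given, so the spread behind each p-value may be technical.

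Olfactory receptors are G protein-coupled receptors that detect odorants in the nose. Each olfactory neuron expresses a single receptor allele, and in other tissues the large clusters of these genes are generally silent and packed in compact chromatin. Myc binds DNA as a dimer with Max, preferably at the E-box CACGTG, and is found mainly at promoters that are already active. RNA polymerase II (Pol2) transcribes messenger RNA, and its ChIP signal marks transcribed genes. Precipitation with an antibody of no specificity (IgG) measures the chromatin recovered without a target. Expression was not measured in these libraries, so silence is judged here by Pol2 alone.

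Receptor genes of the chromosome had low GC content around their annotated starts. In RefSeq (GRCm38.p6, another build than that of the reads, so no gene was placed on a window), 287 of 1782 protein-coding genes of chromosome 2 are olfactory receptors. The largest runs of uninterrupted receptor genes hold 93 genes, Olfr996 to Olfr1126, and 123 genes, Olfr153 to Olfr1274. Only 2 protein-coding genes, Pramel7 and Pramel6, stand between these runs, with Fads2b before the first and Ptprj after the second. A promoter sequence, from 250 bases before to 50 after the annotated start, was at hand for 183 of these 216 receptors. Its GC content had a median of 32.0%, against 52.7% over 26835 other genes, and 35.5% of the receptor promoters held no CpG, against 5.57% of the others. The E-box CACGTG, which reads the same on both strands, occurred in 6 of the 183 (3.28%), against 7.27% of the other promoters. The 6 belonged to Olfr1026, Olfr1053, Olfr1167, Olfr1247, Olfr142 and Olfr1272. Shown here are the receptor promoter at the median GC content (Olfr1096, chr2:86874753-86875052, minus strand), one with an E-box (Olfr1026, chr2:85923020-85923319, plus strand, the motif in capitals) and that of the first gene past the second run (Ptprj, a receptor tyrosine phosphatase of blood cells, chr2:90479125-90479424, minus strand), all in GRCm38 and written 5′ to 3′ along the gene.
Olfr1096: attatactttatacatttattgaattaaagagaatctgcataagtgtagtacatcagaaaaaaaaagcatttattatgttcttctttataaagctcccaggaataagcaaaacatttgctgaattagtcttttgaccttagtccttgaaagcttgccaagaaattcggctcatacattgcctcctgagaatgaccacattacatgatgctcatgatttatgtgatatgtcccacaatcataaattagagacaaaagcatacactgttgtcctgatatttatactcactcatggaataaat
Olfr1026: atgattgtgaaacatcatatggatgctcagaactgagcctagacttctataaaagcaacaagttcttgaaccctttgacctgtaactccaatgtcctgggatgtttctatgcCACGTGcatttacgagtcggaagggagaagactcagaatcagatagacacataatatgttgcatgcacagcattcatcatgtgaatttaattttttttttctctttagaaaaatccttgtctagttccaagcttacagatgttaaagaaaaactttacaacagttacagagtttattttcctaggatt
Ptprj: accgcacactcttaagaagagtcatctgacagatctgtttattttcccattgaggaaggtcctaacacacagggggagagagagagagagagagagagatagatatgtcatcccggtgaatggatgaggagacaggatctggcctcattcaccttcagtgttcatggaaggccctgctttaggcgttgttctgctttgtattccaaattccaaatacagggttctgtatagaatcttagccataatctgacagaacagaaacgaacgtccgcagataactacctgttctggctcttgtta
The Olfr1096 promoter has 1 CpG, that of Olfr1026 has 3 and that of Ptprj has 6, at GC contents of 32%, 36% and 45%. A match to the motif is a description of these letters and not a binding site. The last 50 bases of the Olfr1026 sequence open with atg, so its annotated start may be the first codon. Where an annotated start is the first codon, the sequence called a promoter here may not hold the promoter. How many receptors this touches was not tested.

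Depth set how finely the interval could be read. Between 1278471 and 7433203 reads per library were kept on chromosomes 1 to 19, and between 624 and 4771 of them fell in the interval. In the rest of chromosome 2 every library had 2.16 to 2.26 RPM (reads per 1000000 reads kept on chromosomes 1 to 19) in a window of 5 kb. The interval was covered rather than empty: 590 of its 600 windows (98.3%) held at least 1 read of an IgG library, against 97.3% of the other windows of the chromosome. Summed over the 8 IgG libraries, a window of the interval held a median of 31 reads and at most 86, against a median of 58 and at most 2846 elsewhere on the chromosome. IgG reads were thus fewer in the interval, and their presence shows that reads could be aligned to some part of nearly all of its windows. How much of each window could be aligned was not tested.

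The IgG controls were low in the interval and differed widely among themselves. As a percentage of the mean window in the rest of chromosome 2, the IgG libraries held 38.1% in B0, 48.4, 36.0 and 71.6% in B4 (replicates 1 to 3), 31.9 and 53.5% in B4 with 10058-F4, 73.6% in T4 and 54.7% in the library labelled T14 IgG. All 8 lay below 100% with a median of 50.9%. The lowest were B4 with 10058-F4 replicate 1 and B4 replicate 2, and the highest were T4 and B4 replicate 3. The 95% counting intervals of replicates in 1 state did not overlap (69.6 to 73.7% for B4 replicate 3, 33.3 to 39.0% for replicate 2), so replicate libraries differed beyond counting error. These intervals cover counting error only. In LPS-treated B cells another measure set apart the same lowest libraries. X chromosome reads per 100 autosomal reads were 1.99 in B4 IgG replicate 2 and 2.14 in B4 with 10058-F4 IgG replicate 1. They were 4.18 and 4.26 in the other B4 IgG libraries and 3.60 in the other with 10058-F4. In the B0, T4 and T14 IgG libraries they were 2.47, 3.85 and 2.45. The match was partial, as T14 IgG held 54.7% in the interval and B4 IgG replicate 1 held 48.4%. In the Pol2 libraries this measure was 1.93 and 1.72, nearest to the IgG libraries with the least of the interval.

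Pol2 was the lowest of all antibodies in the interval. B4 Pol2 held 27.1% (95% counting interval 25.3 to 28.9%) of the level in the rest of chromosome 2, from 869 reads, and Pol2 with 10058-F4 held 14.4% (13.5 to 15.3%), from 965 reads. In RPM per window these were 0.609 and 0.313, against 0.711 to 1.65 in the 8 IgG libraries. Both Pol2 libraries lay below all 5 IgG libraries of LPS-treated B cells, and the groups did not overlap. The log2 of cluster over rest was -2.34 ± 0.65 (SD, n = 2) for Pol2 and -1.11 ± 0.46 (SD, n = 5) for IgG, a difference of -1.23 or a ratio of 0.426. The Pol2 libraries come from different treatments, so their SD includes any difference between treatments and is no replicate spread. The IgG libraries also come from both treatments, and the test exchanged labels across treatments. The exact two-sided permutation test over these libraries gave p = 0.0952, the smallest p that 21 arrangements allow, so the design could not pass a threshold of 0.05. Against only the 2 IgG libraries nearest to Pol2 in X chromosome reads the difference was -0.78, and without Pol2 with 10058-F4 it was also -0.78.

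**Figure D1:**
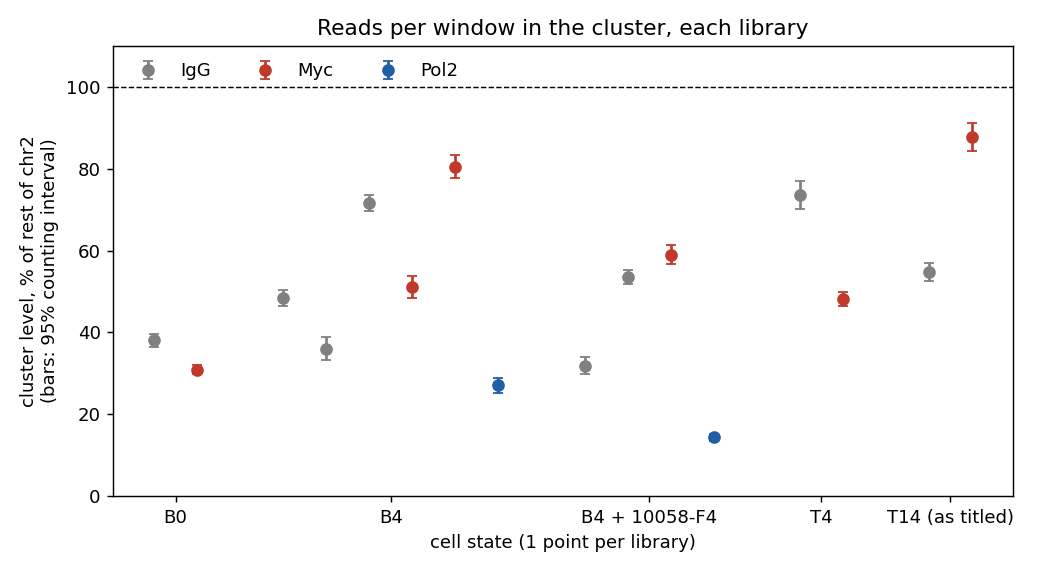
Each point is 1 library: the mean reads per window in the interval as a percentage of that in the rest of chromosome 2 (y axis), by cell state (x axis) and antibody (colour), with 95% counting intervals. The Pol2 points, at 27.1 and 14.4%, lie below every IgG point, which run from 31.9 to 73.6%, while Myc runs from 30.9 to 87.7%.

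No window of the interval stood out in Pol2. The most reads in any of the 600 windows were 8 in B4 and 9 with 10058-F4, and 0 windows held 10 or more. In the rest of chromosome 2, 11.1 and 22.3% of windows held at least 10, and the highest held 468 and 1203 reads. Windows with no Pol2 read made up 31.8 and 28.2% of the interval, against 14.6 and 10.1% elsewhere. Windows with no IgG read made up 43% of it in B4 IgG replicate 2 and 32.7% in IgG replicate 1 with 10058-F4. The most reads in any window of the interval were 7 and 8 in these libraries. The other IgG libraries had 2.5 to 18.3% of the interval without a read. Empty windows and low maxima alone thus did not set Pol2 apart from all IgG libraries. For single windows a ratio to IgG was taken where at least 20 summed IgG reads were present, which held for 72.5% of the interval (435 windows) and 91.5% of the rest of the chromosome. Since this filter acts on the denominator, and more so in the interval, the ratios describe the windows kept and were not compared with the rest. Log2 of Pol2 over IgG in the 435 windows had a median of -1.42 and a highest value of 0.63 (0.1 RPM added to both sides).

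Sparse reads set the extremes among single windows. The highest Pol2 over IgG lay at chr2:86300001-86305000, with 6 Pol2 reads in B4 and 4 with 10058-F4 against 14 IgG reads of LPS-treated B cells. It was followed by chr2:87345001-87350000, with 3 and 7 Pol2 reads against 15, and chr2:87045001-87050000, with 4 and 4 against 12. The windows at chr2:86065001-86070000 and chr2:87555001-87560000 completed the 5 highest, at log2 values of 0.24 and 0.15. The 5 lowest windows all held 0 Pol2 reads in both libraries, against 34 IgG reads at chr2:88790001-88795000, 32 at each of chr2:86510001-86515000, chr2:87465001-87470000 and chr2:88295001-88300000, and 31 at chr2:86575001-86580000. The median window of the interval held 1 read in each Pol2 library, so a count of 0 lies close to it.

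The fit across all windows called few of them in the interval. limma with voom weights was run on 375786 windows of chromosomes 1 to 19 whose mean over libraries was at least 4 reads, with 10058-F4 as a covariate, over 2 Pol2 and 5 IgG libraries. Of the 600 windows 224 had enough reads to be tested. After Benjamini-Hochberg adjustment at 0.05, limma-voom called 6 of the 224 lower in Pol2 and 0 higher. At an unadjusted limma-voom p below 0.05 there were 44, all lower, or 19.6% of the 224. Of all windows tested 30.4% reached that p in either direction, and 86577 of the 375786 were lower at it. Over all windows tested, 2.09% were called lower and 5.18% higher, so the share called lower in the interval, 2.68%, was near the background. The 6 lower windows began at 86510001, 86700001, 87465001, 88265001, 88695001 and 88790001, at limma-voom adjusted p from 0.0362 to 0.0467. The filter on mean reads bears on the sizes: the median window of the interval held 1 read in each Pol2 library, against 8 and 6 in the deepest IgG libraries, so windows of the interval entered mainly through IgG. The median log2 fold change of the 224 was -1.41, against -0.86 in the rest of chromosome 2 and -0.89 over all windows. With a mean of at least 2 reads, 472 windows of the interval were fitted and their median was -1.22. The gap between the interval and the rest of chromosome 2 was -0.55 in the first fit and -0.34 in the second, -0.38 with limma-trend and -0.29 without IgG replicate 2 with 10058-F4. Scaling by trimmed means (TMM) moved the median of all windows from -0.89 to -0.09, and the gap was then -0.52. With TMM limma-voom called 0 of the 224 lower, with 8 at an unadjusted p below 0.05 (3.57%, against 16.1% of all windows). Genome-wide the share of calls that were lower went from 28.7% to 0.142%.

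Wider windows held enough reads for all of the interval to be tested. In windows of 50 kb, limma-voom called 52 of 60 lower in Pol2 and 0 higher, and all 60 had a negative log2 fold change with a median of -1.41. Genome-wide 66.4% of such windows were called lower and 12.5% higher, and the median in the rest of chromosome 2 was -1.04, a gap of -0.38. The share called in the interval, 86.7%, thus stood above a background in which most windows were called too.

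With 10058-F4 the Pol2 level in the interval was lower than without it, in 1 library on each side. Relative to the IgG libraries of the same treatment and to the rest of the chromosome, log2 of Pol2 was -0.89 (95% counting interval -0.99 to -0.78) in B4 and -1.52 (-1.63 to -1.42) with 10058-F4. The difference was -0.64, and -0.91 with IgG left out, with no replicate check on either side. Against the 2 IgG libraries nearest to Pol2 in X chromosome reads alone it was -0.74. The values themselves depended on the IgG library: B4 Pol2 was at -0.41 against IgG replicate 2, which shares its wt mark, and at -1.40 against replicate 3, and Pol2 with 10058-F4 was at -1.15 and -1.90 against its 2 IgG libraries. All of these values were negative.

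The low Pol2 level extended past the interval on both sides. In B4 it was 0.732 RPM per window in the 1 Mb before it, 0.604, 0.618 and 0.606 in its 3 successive megabases, and 0.629 in the 1 Mb after it. The next megabase held 5.10 RPM per window. With 10058-F4 the same series was 0.391, 0.309, 0.315, 0.317 and 0.336, followed by 5.10. IgG rose over the same boundary by less, from 0.864 to 2.77 in B4 replicate 2 and from 1.49 to 1.96 in replicate 3. The interval is therefore an inner piece of a longer stretch of low Pol2.

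**Figure D2:**
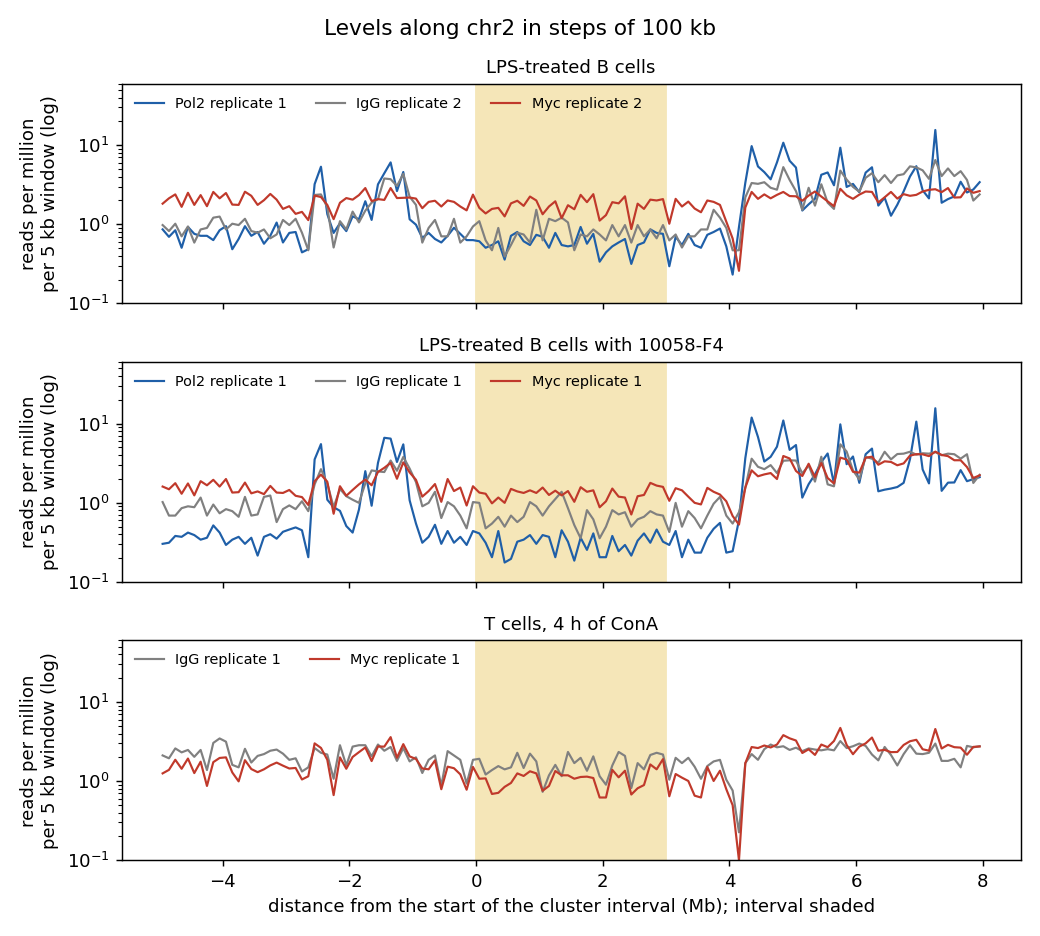
Levels along chromosome 2 in steps of 100 kb (y axis, log scale, RPM per window of 5 kb), from 5 Mb before the interval to 5 Mb past its end (x axis, distance from its start), for single Pol2, IgG and Myc libraries of 3 states; the interval is shaded. Pol2 stays low throughout it, at means of 0.609 in B4 and 0.313 with 10058-F4, below Myc, and the lines rise together just over 1 Mb past its end. The IgG drawn is replicate 2 in B4 (with Myc replicate 2) and replicate 1 with 10058-F4. These pairs have the largest log2 Myc over IgG in the interval, 1.16 and 0.89. With B4 IgG replicate 3 and 10058-F4 IgG replicate 2, not drawn, it was 0.17 and 0.14.

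Myc in the interval had no common direction over the cell states. As a percentage of the rest of chromosome 2, Myc libraries held 30.9% in B0 (95% counting interval 29.8 to 32.0%), 51.1 and 80.4% in B4, 59.0% with 10058-F4, 48.2% in T4 and 87.7% in the library labelled T14 Myc. Like IgG, all 6 were below 100%. The Myc and IgG ranges overlapped over most of their length. Averaged over B0, B4, B4 with 10058-F4 and T4, Myc minus IgG was -0.01 on the log2 scale, with 2 states positive and 2 negative. The exact two-sided permutation test within states gave p = 1.00 over 5 Myc and 7 IgG libraries, where 120 arrangements allow a p as low as 0.0167. Over the 3 B cell states the difference was 0.19, with an exact permutation p of 0.500.

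Myc was below IgG in the interval in B0 and T4 and above it in LPS-treated B cells. Relative to the rest of the chromosome, log2 of Myc over IgG was -0.30 in B0 (95% counting interval -0.38 to -0.22), from 3044 Myc and 2060 IgG reads. It was -0.61 in T4 (-0.70 to -0.52), from 2883 and 1752 reads. These values are 0.812 and 0.655 as ratios, and each rests on 1 library per antibody. In B4 it was 0.36 (0.30 to 0.42) and with 10058-F4 0.51 (0.44 to 0.59), or 1.28 and 1.43 as ratios. The library labelled T14 Myc was 0.68 (0.60 to 0.76) above the one labelled T14 IgG, and exchanging the labels gives -0.68.

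In B4, where both antibodies had replicates, the difference was smaller than the spread between libraries. The exact two-sided permutation test of 2 Myc against 3 IgG libraries gave p = 0.400, where the smallest p is 0.200, and the groups overlapped. Of the 6 pairs of B4 libraries 5 were positive, from 0.08 for Myc replicate 1 over IgG replicate 1 to 1.16 for Myc replicate 2 over IgG replicate 2. Myc replicate 1 over IgG replicate 3 was at -0.49. The titles pair Myc replicate 2 with IgG replicate 3, which gave 0.17, and that pair and the pair of first libraries thus lay closer to 0 than the mean. With 10058-F4, Myc was 0.89 and 0.14 above its 2 IgG libraries.

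The difference between states was of the size of these shifts. B4 minus B0 was 0.66, B4 with 10058-F4 minus B4 was 0.16, and T4 minus B4 was -0.97. None of these was tested. B0 and T4 have 1 library per antibody, and Myc with 10058-F4 has 1 library. Reads were 45 bases long in B0, in 10058-F4 and in most B4 libraries, 25 in T cells and 24 to 30 in B4 Myc and IgG replicate 1, so T4 and B4 differ in read length as well as in cell type. The part of read length in the difference was not tested.

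limma-voom found no window of the interval that differed between Myc and IgG. The fit took 407621 windows, 4 Myc and 6 IgG libraries of B cells and cell state as a covariate, and tested 348 of the 600. It called 0 of the 348 in either direction. At an unadjusted limma-voom p below 0.05 there were 16 windows higher and 3 lower, 19 in all or 5.46% of the 348. Of all windows 3.93% reached that p, 9499 higher and 6503 lower. limma-trend also called 0, with 11 at an unadjusted p below 0.05 (3.16%, against 3.40% of all windows). The background of limma-voom calls after adjustment was of the same kind, with 0.00147% of windows called higher in Myc (6 windows) and 0% lower. The median log2 fold change of the windows tested was 0.17 in the interval and -0.02 in the rest of chromosome 2. The value of 0.17 rested on single libraries: the gap of 0.19 to the rest of the chromosome was 0.0032 without B4 Myc replicate 2, 0.09 without B4 IgG replicate 1 and 0.11 without B4 IgG replicate 2. In windows of 50 kb limma-voom called 0 of 60, against a background of 0% in each direction. There 0 of the 60 reached an unadjusted limma-voom p below 0.05, against 4.39% of all such windows.

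Few single windows differed by more than 2-fold between Myc and IgG on an average over 4 states. This average joins states of opposite sign, and runs of adjacent windows were not sought. Of the 435 windows with at least 20 summed IgG reads, 7 (1.61%) had more than 2-fold Myc over IgG on average over 4 states and 10 (2.30%) less than the inverse. In the rest of the chromosome these shares were 2.07 and 0.979%. The filter on IgG reads acted more strongly in the interval, so no difference was read from them. The median was -0.05 (0.1 RPM added to both sides). The highest lay at chr2:86935001-86940000 (1.41), chr2:87755001-87760000 (1.38) and chr2:88715001-88720000 (1.37), and then at chr2:87985001-87990000 (1.11) and chr2:87125001-87130000 (1.08). In all 5 of these the T4 IgG library had 0 reads in the window, and T4 Myc had 11, 9, 8, 3 and 2. The lowest lay at chr2:88250001-88255000 (-1.53), chr2:88530001-88535000 (-1.51), chr2:88570001-88575000 (-1.39), chr2:86010001-86015000 (-1.31) and chr2:88305001-88310000 (-1.24), with 12 to 20 Myc reads summed over the 5 libraries of these states. The windows with the most IgG reads, at chr2:86625001-86630000, chr2:87490001-87495000 and chr2:88140001-88145000, had 86, 69 and 67 of them and Myc over IgG of -0.94, -0.81 and -0.22.

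The sign of Myc over IgG was shared along the interval. In blocks of 500 kb it was negative in 6 of 6 in B0 (-0.47 to -0.18) and in T4 (-0.77 to -0.40). It was positive in 6 of 6 in B4 (0.19 to 0.49), with 10058-F4 (0.25 to 0.72) and in T14 as titled (0.59 to 0.94). Pol2 over IgG was negative in 6 of 6, from -1.06 to -0.73 in B4 and from -1.73 to -1.32 with 10058-F4. The blocks share their libraries and are no replicates of a state. The third block, chr2:87000001-87500000, had the smallest Myc over IgG in B4 (0.19), with 10058-F4 (0.25) and, by size, in T4 (-0.40).

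Windows with much Pol2 showed in some states the opposite sign to the receptor interval. The rest of chromosome 2 was ranked into 10 equal groups by the reads of B4 Pol2, a library that no Myc value uses. In B0, log2 of Myc over IgG relative to the chromosome was -0.08 in the lowest group, 0.14 in the highest and -0.30 in the interval. In T4 these were -0.21, 0.35 and -0.61. In B4 they were 0.15, 0.02 and 0.36, and with 10058-F4 0.14, 0.05 and 0.51. In Myc over IgG the interval lay beyond the lowest group in each of these states. B4 Pol2 had 0.609 RPM per window in the interval, between group 3 from the lowest (0.424) and group 4 (0.841). The groups were formed on these same reads, so the lowest groups hold few of them by construction. In Pol2 with 10058-F4, which did not rank the groups, the interval held 0.313 and the lowest group 0.420. Ranked by Pol2 with 10058-F4 instead, B4 Pol2 in the interval lay between the lowest group (0.401) and the next (0.771). Under that ranking, Myc over IgG of the lowest group was -0.18 in B0, -0.42 in T4, 0.30 in B4 and 0.29 with 10058-F4, closer to the interval. In T14 as titled the values were 0.39, -0.70 and 0.68, the reverse of T4, and with the labels exchanged the highest group was at 0.70 and the interval at -0.68.

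The comparison with high Pol2 windows depended on the IgG library in LPS-treated B cells. Myc over IgG was higher in the interval than in the highest Pol2 group in 4 of 6 B4 pairs and lower in 2. For B4 Myc replicate 1 over IgG replicate 1 the values were 0.08 in the interval and 0.29 in the highest group. For B4 Myc replicate 2 over IgG replicate 3 they were 0.17 and 0.14. With 10058-F4 they were 0.89 and -0.08 against IgG replicate 1 but 0.14 and 0.18 against IgG replicate 2. Against B4 IgG replicate 2 they were 0.50 and -0.16 for Myc replicate 1 and 1.16 and -0.57 for Myc replicate 2. IgG rose along the groups too: relative to the chromosome, B4 IgG went from -0.87 in the lowest to 0.69 in the highest, and B0 IgG from -1.08 to 0.82.

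**Figure D3:**
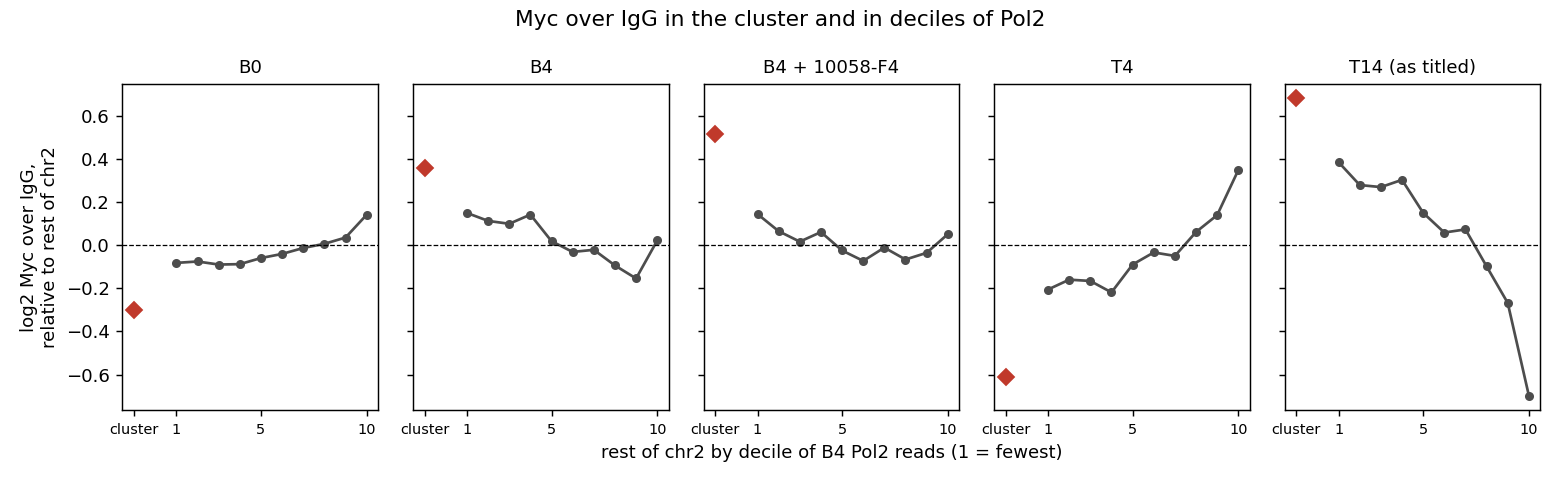
Log2 of Myc over IgG relative to the rest of chromosome 2 (y axis) in the interval (diamond) and in 10 groups of the other windows ranked by B4 Pol2 reads (x axis), 1 panel per cell state. The diamond is lowest in B0 (-0.30) and T4 (-0.61) and highest in B4 (0.36), with 10058-F4 (0.51) and in T14 as titled (0.68). It is drawn left of the groups for display and not by its Pol2 level.

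Among stretches of the same length the interval was near the low end of the scale in all libraries but the one labelled T14 Myc. Chromosome 2 was divided into 58 stretches of 3 Mb. The interval had the lowest level of all 58 in Pol2 with 10058-F4, both B0 libraries, B4 IgG replicate 2 and B4 with 10058-F4 IgG replicate 1, and the second lowest in B4 Pol2. In the library labelled T14 Myc it was the 13th lowest, and in the others the second to the fourth lowest. Pol2 over IgG was the lowest of 58 with 10058-F4 (-1.54, not relative to the rest) but only the sixth lowest in B4 (-0.87). Myc over IgG was the lowest of 58 in B0, the second lowest in T4, the third highest in B4 and with 10058-F4, and the highest in T14 as titled.

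Of the 3 stretches nearest to the interval in B4 Pol2, 2 had the same signs of Myc over IgG and 1 did not. The stretch that starts 9 Mb past the start of the interval held 0.719 RPM of B4 Pol2 per window and 0.363 with 10058-F4. Its log2 Myc over IgG was -0.23 in B0, 0.38 in B4, 0.53 with 10058-F4, -0.50 in T4 and 0.51 in T14 as titled. The stretch at 21 Mb, with 0.871 and 0.566 RPM of Pol2, had -0.21, 0.25, 0.26, -0.33 and 0.51. The stretch at 90 Mb had 0.567 RPM of B4 Pol2 but 0.695 RPM of Pol2 with 10058-F4, where the interval had 0.313. It was low in every library (0.652 to 1.12 RPM in Myc and IgG). Its log2 Myc over IgG was -0.01, -0.25, -0.05, 0.07 and -0.32, the opposite sign to the interval in all states but B0. The values with 10058-F4 and in T4 were small. The values of the receptor interval were thus near those of the stretches at 9 and 21 Mb, which lie outside it, and no test set it apart from them.

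**Figure D4:**
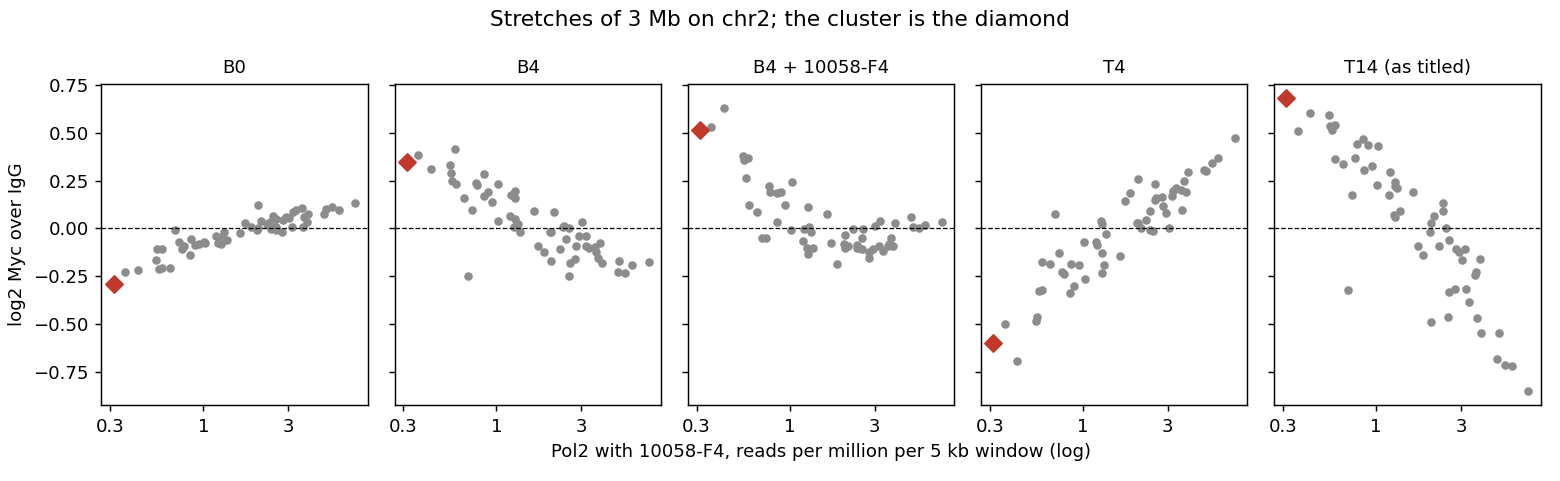
Each point is a stretch of 3 Mb of chromosome 2: log2 of Myc over IgG, not relative to the rest (y axis), against RPM of Pol2 with 10058-F4 per window (x axis, log scale), 1 panel per cell state; the diamond is the receptor interval. It lies at the left end in all panels, at -0.29 in B0, 0.34 in B4, 0.51 with 10058-F4, -0.60 in T4 and 0.68 in T14 as titled, next to other stretches of low Pol2.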

How the data were processed

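For each of the 16 libraries the authors deposited the aligned reads, with the chromosome, position and strand of each. The submitters' processing notes name CASAVA 1.0, Bowtie 0.12.7 and build mm8. How reads with several matches were treated is not given in the sources used here, nor is whether the first base is 0 or 1. The files hold no counts per region, so all levels were computed from the reads. Reads were 45 bases long in most libraries, 25 in T cells and 24 to 30 in B4 Myc and IgG replicate 1. Reads with the same 5′ end on the same strand were counted once. This removed 5.29% of the reads of B4 Myc replicate 1 and no more than 0.0808% from any other library. Reads were counted by their midpoint in windows of 5 kb and scaled to 1000000 reads kept on chromosomes 1 to 19 (RPM).

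The library was the replicate. The measure was log2 of the mean reads per window in the interval over that in the rest of chromosome 2, which needs no scaling between libraries. It was compared by exact permutation over libraries. Windows were tested with limma 3.58.1 (voom weights, Benjamini-Hochberg over all windows, R 4.3.3). Intervals at 95% cover counting error only. Windows named in the text were the 5 highest and 5 lowest by Pol2 and by Myc over IgG among those with at least 20 summed IgG reads, and the 3 with the most IgG reads. The interval, lists and tests were chosen with earlier results of these data known. Alternatives included medians over windows, other filters and scaling, libraries left out and read length. Promoter sequences are those of RefSeq (GRCm38.p6). No gene was placed on an mm8 window.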

Additional observations from a re-analysis of the deposited data

Results flagged for a closer look

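Myc over IgG in the interval, relative to the rest of chromosome 2 on the log2 scale, lay on opposite sides of 0 in different cell states. It was -0.30 in B0 and -0.61 in T4, where the only Myc library lay below the only IgG library. It was 0.51 in B4 with 10058-F4, where the Myc library lay above both IgG libraries, and 0.68 in T14 as titled. The opposite signs of B0 and of T4 against each of these states were not tested, because B0, T4 and T14 have 1 library per antibody. The T14 value turns to -0.68, the sign of T4, if the file names rather than the titles are right.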

How the results depend on the processing

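Pol2 minus IgG kept its direction under all 14 alternatives, from -1.69 to -0.68 (exact permutation p from 0.0952 to 0.333), and was nearest to 0 as a median over windows. The count of interval windows called lower in Pol2 by limma-voom was 6 (2.68% of those tested, against 2.09% of all windows). It was 17 with limma-trend (7.59% against 9.33%) and 19 with at least 2 reads on average (4.03% against 2.62%). It was 52 in windows of 50 kb (86.7% against 66.4%). With at least 8 reads it was 0, as no window of the interval was left to test. With TMM scaling it was 0 (against 0.0138% of all windows). Leaving out 1 IgG library gave 0 to 5, with 0 without either IgG library with 10058-F4, while 0.205 to 3.93% of all windows were called lower. Leaving out B4 Pol2 or Pol2 with 10058-F4 leaves 1 Pol2 library. The gap in median log2 fold change to the rest of chromosome 2 was then -0.54 or -0.42. Interval windows passed the filter on mean reads mainly through IgG in these fits too, which bears on the size of the gap. The mean Myc difference of -0.01 over 4 states changed sign as a median over windows (0.10), with T14 as titled (0.13), with libraries of 45-base reads alone (0.29, which also leaves out T4) and in B cells alone (0.19, which leaves out only T4), and ran from -0.10 to 0.0838 with 1 library left out, with exact permutation p from 0.5 to 1 throughout. It was positive without B4 Myc replicate 1 (0.07), B4 IgG replicate 3 (0.06) or IgG replicate 2 with 10058-F4 (0.0838). As medians over windows Myc over IgG was -0.17 in B0, -0.32 in T4 and 0.90 in T14 as titled. The median window of the interval held 5 Myc and 3 IgG reads in B0, 4 and 2 in T4, and 4 and 3 in T14. In each Pol2 library it held 1. Such medians are small whole counts, so values from them move in coarse steps. In B4 it was -0.16 against IgG replicate 3 alone, and 0.03 to 0.69 with 1 library left out. With 10058-F4 it was 0.14 to 0.89 with 1 IgG library left out. The Pol2 change with 10058-F4 was -0.91 with IgG left out. The causes were not tested. Chosen after seeing the data were B cells alone, Pol2 libraries left out, the 2 IgG libraries nearest to Pol2 in X chromosome reads, both alternatives of the Pol2 change and, for single states, all but single IgG libraries on their own. A replicate block for the Myc and IgG libraries that the titles pair in B4 called 0 interval windows by limma-voom, as did the same 4 libraries unblocked. At an unadjusted limma-voom p below 0.05 these fits had 19 and 12 interval windows, 4.96 and 3.13% of those tested. Of all windows 5.79 and 3.73% reached it. Genome-wide the block called 837 windows higher and 2 lower, against 15 and 1. The lowest depth, 624 reads in the interval, limits B4 IgG replicate 2.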
